A study of Mus musculus with 8 samples.

Results

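Uncoupling proteins are carriers of the mitochondrial inner membrane that belong to the SLC25 family. The classical member, UCP1, lets protons return to the matrix without making ATP, and in brown fat the energy is released as heat. UCP2 is widespread and abundant in immune cells, UCP3 is found mainly in skeletal muscle, heart and brown fat, where its gene is known to follow fatty acid supply through PPAR receptors, and the products of Slc25a14 (UCP5) and Slc25a27 (UCP4) are known mostly from the brain. The transport activity of the members other than UCP1 is still debated. The 5 genes Ucp1, Ucp2, Ucp3, Slc25a14 and Slc25a27 were chosen by name, with earlier results of the comparison between diesel exhaust (DE) and filtered air (FA) in view, so their differences between these groups are given as a description and no p-value is attached to them. All 5 were found among the 27179 Entrez genes of the count table, and all 5 passed the filter on low counts, which kept 14966 genes.

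RNA was measured by RNA-seq in neonatal cardiomyocytes (NCMs) of male C57Bl/6J pups on postnatal day 0, with 1 heart per library. The dams breathed FA (4 libraries, replicates 2, 3, 4 and 6) or DE from a diesel engine (4 libraries, replicates 1, 3, 5 and 7) from embryonic day 0.5 until late gestation, and both groups were dissociated, incubated with Ara-C and cleared of attaching fibroblasts in the same way. The methods of the study give a smaller number of RNA-seq samples per group than the labels, and all labelled libraries were used. Whether libraries of a group shared a litter is not stated in the sources used here, so the spread between them may be smaller than that between litters. The sample names begin with a number whose meaning is not given, which is 12 for DE replicates 3 and 5 and 11 for the 6 other libraries.

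Between 17943024 and 39839737 fragments were counted per library. Levels are given as CPM, the count divided by the library total after scaling by TMM factors. Genes are referred to as called where the quasi-likelihood test of edgeR over all tested genes gave a Benjamini-Hochberg value up to 0.05 and the log2 fold change was at least 0.32 in size. The defining cardiomyocyte transcripts were abundant, with 12 of 12 markers tested and a summed level of 80500 to 85700 CPM in FA and 68200 to 79200 CPM in DE. Within this list members went both ways: Myh6, the adult myosin heavy chain, was called lower (log2 fold change -0.67), as was Pln, a regulator of the calcium pump (-0.38), Myh7, the fetal form, was called higher (0.53), and the list's median was -0.11. The 9 fibroblast markers summed to 2040 to 3530 CPM in FA and to 3740 to 6280 CPM in DE, so the sums of the groups did not overlap for either list. Of these 9 markers 3 were called higher in DE and 0 lower, with a median of 0.67. Over all tested genes 3.58% were called higher and 2.22% lower. In such bulk samples fewer cells of a type and less RNA per cell cannot be told apart, and the part of these marker levels in the results below was not tested.

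Ucp3 and Ucp2 lie side by side on the forward strand of chromosome 7 of GRCm38.p6 (mm10), Ucp3 from 100472991 to 100486432 and Ucp2 from 100493337 to 100499629, with 6904 bases between them. Ucp1 is on chromosome 8 from 83290348 to 83298456, Slc25a14 on chromosome X from 48623418 to 48662298 and Slc25a27 on chromosome 17 from 43637739 to 43667214. The 250 bases before the annotated starts of the neighbouring pair are shown, since these 2 genes carried the difference between the groups. Sequences are from RefSeq on GRCm38.p6, 5′ to 3′ on the forward strand (chr7:100472741-100472990 for Ucp3 and chr7:100493108-100493357 for Ucp2, with a longer model of Ucp2 starting at 100493337). Capitals mark AGGTCA, the half-site of nuclear receptors, or GGGCGG, the GC box, on either strand.
Ucp3: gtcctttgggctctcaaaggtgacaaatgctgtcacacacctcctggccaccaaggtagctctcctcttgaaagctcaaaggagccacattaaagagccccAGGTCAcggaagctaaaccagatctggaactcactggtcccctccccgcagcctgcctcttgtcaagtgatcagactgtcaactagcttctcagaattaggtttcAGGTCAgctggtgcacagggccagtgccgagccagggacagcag
Ucp2: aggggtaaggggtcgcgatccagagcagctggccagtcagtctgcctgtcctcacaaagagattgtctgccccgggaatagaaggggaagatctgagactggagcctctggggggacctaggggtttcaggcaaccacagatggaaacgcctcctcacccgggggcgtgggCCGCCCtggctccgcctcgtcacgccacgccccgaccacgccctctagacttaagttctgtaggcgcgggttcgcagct
The Ucp3 sequence held AGGTCA at 2 places, from -149 to -144 and from -44 to -39 relative to the start, both in the direction of the gene. At least 1 copy on either strand was present in 14% of 32851 such windows over all genes, and at least 2 copies on 1 strand in 0.819%. The Ucp2 sequence held no AGGTCA and held GGGCGG on the reverse strand from -79 to -74, a motif present in 32.7% of windows. The Ucp1 window held AGGTCA from -14 to -9, and the overlapping windows at 2 of the 3 starts of Slc25a14 held the same GGGCGG. None of the 4 genes with a sequence held 2 copies of AGGTCA in a row with 1 base between them (the direct repeat 1 known as a PPAR element, in 0.0335% of windows), TATAAA (12.4%) or CCAAT (33.8%) in these exact letters on either strand. The Ucp2 window was rich in CpG, with 16 CpG sites and 63.6% G and C, whereas the Ucp3 window had 3 sites and 54.8% (median of all windows 6 sites and 52.4%). Of the 5 members, 4 had a sequence in the RefSeq table.

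Ucp3 was nearly absent from the DE libraries. Its level in FA replicates 2, 3, 4 and 6 was 11.31, 9.317, 8.973 and 8.950 CPM. In DE replicates 1, 3, 5 and 7 it was 0.3631, 0.1434, 0.1746 and 0.1599 CPM. The highest DE library therefore lay far below the lowest FA library. In fragments, 951 were counted over the 4 FA libraries and 27 over the 4 DE libraries, with 12, 5, 7 and 3 in the single DE libraries. Over the summed DE libraries this is 0.218 CPM on raw totals, without TMM factors. Its exact Poisson 95% interval of 0.144 to 0.318 covers counting error only. FA averaged 9.64 ± 1.13 CPM and DE 0.210 ± 0.103 CPM (SD over 4 libraries each), with a ratio of means of 45.8. The fitted log2 fold change of DE over FA was -5.47 (standard error 0.25), the lowest of all 14966 tested genes.

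Ucp2, the most abundant member, was also lower in DE, by a smaller factor. It was at 88.93, 93.17, 87.13 and 106.7 CPM in FA replicates 2, 3, 4 and 6. DE replicates 1, 3, 5 and 7 had 33.50, 50.29, 33.32 and 29.95 CPM. The groups were well apart, and DE replicate 3 was the highest of its group. The mean of 4 FA libraries was 94.0 ± 8.83 CPM (SD) and that of 4 DE libraries 36.8 ± 9.16 CPM. On the log2 scale the fitted difference was -1.35 (standard error 0.16), which placed Ucp2 at position 41 from the lowest of the tested genes. UCP2 is abundant in leukocytes, and the 13 leukocyte markers, led by the macrophage gene Cd68, summed to 14.9 to 21.9 CPM in FA and to 18.4 to 30.5 CPM in DE. The sums overlapped, 0 of the 6 tested markers were called, with log2 fold changes of 0.65 for Cd68 and -0.18 for Csf1r, and the part of leukocyte RNA in the Ucp2 difference was not tested.

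Slc25a14 and Slc25a27 had overlapping groups. Slc25a14 was at 3.289, 4.883, 3.612 and 3.541 CPM in FA replicates 2, 3, 4 and 6. It was at 4.932, 4.446, 4.140 and 4.957 CPM in DE replicates 1, 3, 5 and 7. FA replicate 3 lay among the DE libraries and the other FA libraries lay below them. The means were 3.83 ± 0.715 and 4.62 ± 0.396 CPM (SD, n = 4 each), with a log2 fold change of 0.27 (standard error 0.16).
Slc25a27 was at 11.58, 11.61, 9.029 and 6.786 CPM in FA replicates 2, 3, 4 and 6. It was at 10.44, 8.491, 7.781 and 8.474 CPM in DE replicates 1, 3, 5 and 7. The FA libraries spanned the whole range of the DE libraries. The means were 9.75 ± 2.32 and 8.80 ± 1.14 CPM, with a log2 fold change of -0.15 (standard error 0.18). Of the 12 neural markers 6 passed the filter and none was called, and their sum was 11.5 to 14.2 CPM in FA and 11.5 to 16.4 CPM in DE.

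Ucp1 was the least abundant member in FA, at 0.6952, 0.5979, 0.3950 and 0.7868 CPM in replicates 2, 3, 4 and 6. In DE replicates 1 and 7, which share the name prefix 11 with FA, it was at 0.3328 and 0.5863 CPM. In DE replicates 3 and 5, with prefix 12, it was at 1.979 and 1.172 CPM, above every other library. Over 4 libraries each, FA averaged 0.619 ± 0.168 CPM and DE 1.02 ± 0.731 CPM (SD), and the fitted log2 difference was 0.73 (standard error 0.48). Among libraries with prefix 11 only, the log2 fold change was -0.54. All prefix 12 libraries are DE, so prefix and exposure cannot be told apart for them.

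**Figure D1:**
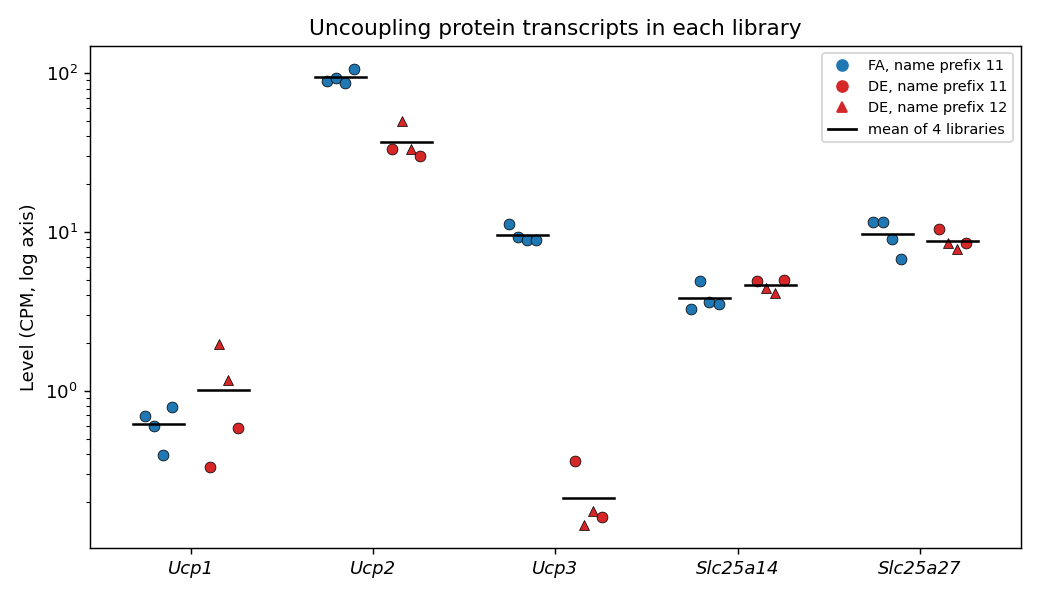
Levels of the 5 transcripts in CPM (log axis) in each library, with FA in blue, DE in red, triangles for DE libraries with name prefix 12 and bars for the mean of 4 libraries. The DE points lie below all FA points for Ucp3 (0.1434 to 0.3631 against 8.950 to 11.31 CPM) and for Ucp2 (29.95 to 50.29 against 87.13 to 106.7 CPM), and the groups overlap for the other 3 genes.

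In the fit over all genes, 2 of the 5 members were called, Ucp2 and Ucp3, both lower in DE, and none was called higher. Over all 14966 tested genes 5.8% were called, 2.22% lower and 3.58% higher in DE. FA and DE levels were without overlap for the same 2 members and for 14.7% of all tested genes. Because the members were named with this contrast in view, these counts describe the family and are not evidence about it. Both genes were called in all 17 fits, the alternatives included, with log2 fold changes from -5.88 to -5.06 for Ucp3 and from -1.57 to -1.27 for Ucp2.

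The DE libraries of the different prefixes were compared in a model with 3 groups, a contrast that played no part in naming the members. Of the 5 members 1, Ucp1, was called (2.06% of all tested genes), with a mean of 0.460 CPM in prefix 11 and 1.58 CPM in prefix 12. Prefix 12 was higher by 1.84 on the log2 scale (standard error 0.41, edgeR adjusted p = 0.0445), in 2 of 2 libraries. The call was lost with library totals alone (adjusted p = 0.0574) and without DE replicate 1, 3, 5 or 7 in the same edgeR test (adjusted p = 0.239, 0.219, 0.255 and 0.108). The log2 difference was 1.86 with library totals and 1.41, 1.43, 2.18 and 2.22 without these replicates. In the same 5 fits, 26, 1, 0, 0 and 19 of all tested genes were called. Over 12 alternatives the edgeR adjusted p of Ucp1 ranged from 0.00154 to 0.255. Ucp2 was at 31.7 CPM in prefix 11 and 41.8 CPM in prefix 12 (adjusted p = 0.217), and Ucp3 at 0.262 and 0.159 CPM (adjusted p = 0.330, same edgeR test). The sum of markers of brown adipocytes, where Ucp1 is a hallmark gene, was 16.2 to 18.1 CPM in DE prefix 11 and 15.0 to 15.8 CPM in DE prefix 12. Almost all of it was Cidea, a lipid droplet protein, and Dio2, a deiodinase, which went opposite ways. Cidea was at 7.83 to 7.99 CPM in prefix 11 and 8.81 to 9.83 CPM in prefix 12, and Dio2 at 8.05 to 9.62 and 5.54 to 5.59 CPM. The part of these markers in the Ucp1 difference was not tested. The leukocyte markers summed to 18.4 to 21.7 CPM in prefix 11 and 26.8 to 30.5 CPM in prefix 12, most of the gap being Cd68 (9.54 to 10.3 and 14.5 to 16.4 CPM). Of this list 6 genes were tested and 0 called between the prefixes, and its part in the Ucp1 difference was not tested. The defining fat cell genes, singled out after their values were seen, were near 0: Adipoq, Plin1, Cidec and Lep had 13, 3, 11 and 3 fragments over all 8 libraries. Adipoq was at 0 in FA replicates 2, 3 and 4 and at 0.0984 CPM in FA replicate 6. It was at 0.0533 to 0.0605 CPM in DE prefix 11 and at 0.0748 to 0.143 CPM in DE prefix 12. Cidec was at 0 in the 4 FA libraries, at 0 to 0.121 CPM in DE prefix 11 and at 0.0499 to 0.143 CPM in DE prefix 12. Plin1 and Lep went the other way between the prefixes. Plin1 was at 0 to 0.107 CPM in DE prefix 11 and at 0 to 0.0287 CPM in DE prefix 12. Lep was at 0 to 0.0303 CPM in DE prefix 11 and at 0 in DE prefix 12. Of the 10 brown adipocyte markers, 2 passed the filter, and Cidea was called lower in DE than in FA (log2 fold change -0.92, adjusted p = 0.00373 in the same test).

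Levels of different genes were compared per kb of transcript, using the longest transcript matched to RefSeq within the bounds of each gene (from 1.597 kb for Ucp2 to 2.895 kb for Slc25a27). The matched transcript of Ucp2 is 3.988 kb long in GENCODE, and with this length, an alternative chosen after seeing the data, Ucp2 averaged 23.6 CPM per kb in FA and 9.22 CPM per kb in DE and was still first. In FA the order was Ucp2 (58.8 ± 5.53 CPM per kb), Ucp3 (3.94 ± 0.461), Slc25a27 (3.37 ± 0.800), Slc25a14 (2.12 ± 0.396) and Ucp1 (0.378 ± 0.103, SD, n = 4 each). The ranges of Ucp3 and Slc25a27 overlapped, as did those of Slc25a27 and Slc25a14, so these neighbours in the order were not separated. In DE the order was Ucp2 (23.0 ± 5.74 CPM per kb), Slc25a27 (3.04 ± 0.395), Slc25a14 (2.56 ± 0.220), Ucp1 (0.622 ± 0.447) and Ucp3 (0.0859 ± 0.0420). Ucp3 thus moved from the second place to the last, below the lowest library of Ucp1, and in DE only Slc25a27 and Slc25a14 overlapped as neighbours. In DE replicate 1 the order of Ucp1 and Ucp3 rests on 11 and 12 fragments. Before division by length Ucp3 was the higher there (0.3631 against 0.3328 CPM).
The summed level of the 5 transcripts was 66.6, 69.2, 63.6 and 75.2 CPM per kb in FA replicates 2, 3, 4 and 6. It was 27.7, 38.2, 26.6 and 24.9 CPM per kb in DE replicates 1, 3, 5 and 7. Ucp2 made up 83.7% to 88.8% of the sum in FA and 75.5% to 82.5% in DE. The share of Ucp3 went from 4.86% to 6.94% in FA down to 0.154% to 0.536% in DE. Within a library, the level of Ucp2 per kb exceeded that of Ucp3 by a ratio of 12.1 to 18.3 in FA and of 141 to 537 in DE. With the length of 3.988 kb, the sums were 30.9 to 35.2 CPM per kb in FA and 13.6 to 19.3 in DE. The share of Ucp2 was then 67.2% to 76.0% in FA and 55.2% to 65.4% in DE, and the ratio to Ucp3 4.83 to 7.32 and 56.6 to 215. The ratio of Slc25a27 to Slc25a14 was 1.20 to 2.19 in FA and 1.07 to 1.32 in DE.

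**Figure D2:**
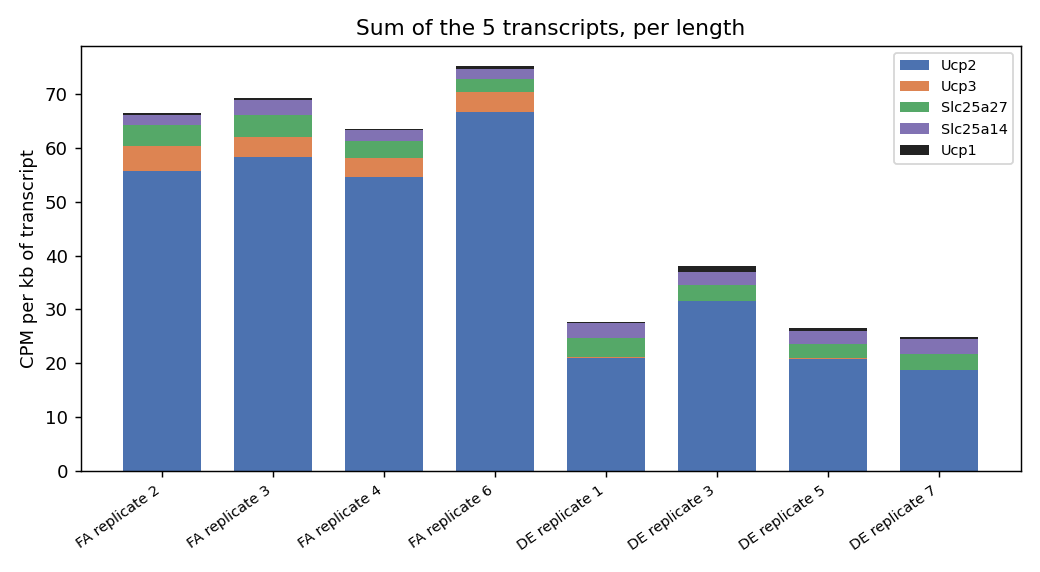
Stacked levels of the 5 transcripts per library in CPM per kb of transcript, 4 FA and 4 DE libraries. The bars of FA reach 63.6 to 75.2 and those of DE 24.9 to 38.2, with Ucp2 as the main part everywhere and the Ucp3 segment visible in FA alone.

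The 2 adjacent genes were set beside their surroundings. Within 250 kb of the pair, 11 other genes start, of which 9 passed the filter and 0 were called by edgeR's quasi-likelihood test, where 5.8% of all tested genes were. In that test 3 of the 9 had an unadjusted p under 0.05, with adjusted p of 0.0797, 0.142 and 0.151. The share of all tested genes under this threshold is not given here, so that count is not a result about the region. Of the 9, 1, C2cd3, was called by DESeq2, by the likelihood ratio test and without DE replicate 1, and none by limma-voom. Those nearest to the pair were C2cd3, a centriole gene that ends just before Ucp3, and Coa4, a cytochrome oxidase assembly factor beyond Ucp2. C2cd3 was at 27.3 to 35.2 CPM in FA and 21.0 to 28.7 CPM in DE (log2 fold change -0.41, standard error 0.13, adjusted p = 0.0797). Coa4 was at 2.99 to 4.48 CPM in FA and 1.97 to 3.67 CPM in DE (log2 fold change -0.34, adjusted p = 0.341 in the same edgeR test). The other 7, Pgm2l1, P4ha3, Ppme1, Mrpl48, Rab6a, Plekhb1 and Fam168a, had log2 fold changes between -0.27 and 0.35. The pseudogene Gpx2-ps1 had 14 fragments in all and was below the filter, as was Dnajb13. Dnajb13, which runs on the opposite strand and in the GENCODE models overlaps Ucp2 by 305 bases, had 84 fragments in all against 13667 for Ucp2. The antisense gene Gm10603 overlaps Ucp3 over 1857 bases. The kit kept the strand, and the strand setting of the counting is not given in the sources used here, so reads of Gm10603 could have been counted for Ucp3.

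**Figure D3:**
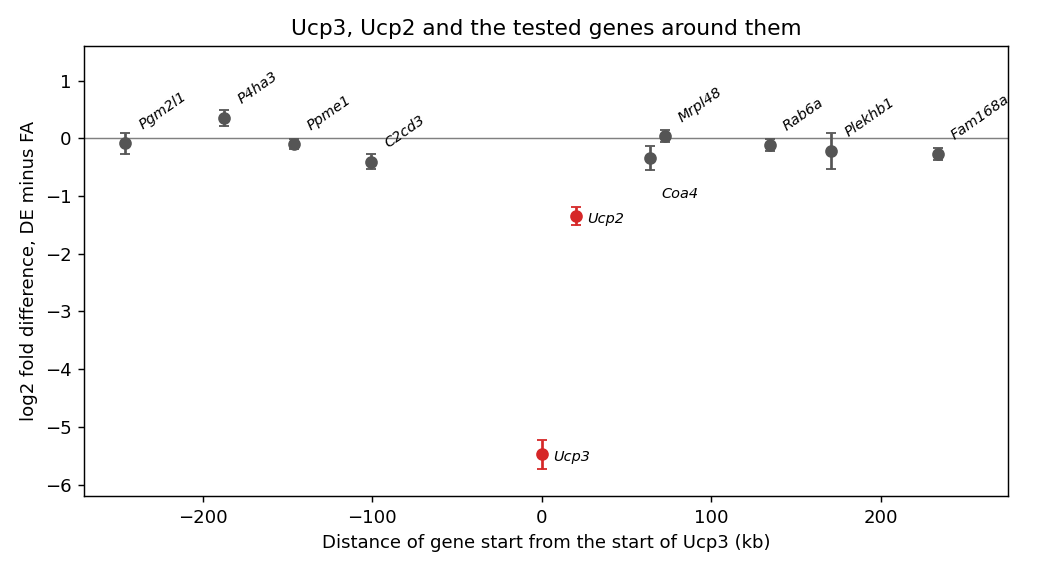
Log2 fold difference of DE over FA (points, bars are standard errors) for the tested genes whose start lies within 250 kb of the pair, against the distance of each start from that of Ucp3 in kb. Ucp3 (-5.47) and Ucp2 (-1.35) lie below the 9 other genes, which range from -0.41 to 0.35.

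Genes around the uncoupling proteins in function were described by lists. PPAR target genes of fatty acid handling fell together in DE: 23 of the 27 tested genes of this list were called lower and 0 higher, against 2.22% and 3.58% of all tested genes, with a median log2 fold change of -0.88 (0.004 over all tested genes). Among them the acyl-CoA thioesterase Acot1 fell from 90.3 ± 9.89 to 18.9 ± 1.08 CPM and its paralog Acot2 from 157.4 ± 6.90 to 45.3 ± 3.54 CPM (SD, n = 4 each). These near-identical genes may share reads, so their values are uncertain. Cpt1a, the enzyme that commits fatty acids to mitochondrial import, fell from 166.5 ± 17.6 to 59.2 ± 7.27 CPM, and Mlycd, which removes the CPT1 inhibitor malonyl-CoA, from 60.6 ± 5.33 to 25.7 ± 2.49 CPM. The highest adjusted p of these 4 in edgeR was 0.000175, for Mlycd. The called members ranged from -2.25 to -0.43 on the log2 scale, so none reached the difference of Ucp3. The 4 not called were Acadm, Ehhadh, Plin2 and Lpl, with log2 fold changes from -0.29 to -0.07, and 1 further gene, Fgf21, was below the filter. The study itself names several of these genes from the same libraries, so the list is not independent evidence of its direction.

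Of 18 nuclear receptors, coactivators and other factors known to act on Ucp genes, 1 was called lower and 0 higher, with a median of -0.19, a share near the 5.8% called of all tested genes. The called gene was Ppargc1b, a coactivator of mitochondrial gene expression, which fell from 30.99 ± 7.10 to 18.3 ± 1.76 CPM (log2 fold change -0.76, standard error 0.16, edgeR adjusted p = 0.0224). This call was lost without FA replicate 2, FA replicate 4 or DE replicate 3 and among libraries with prefix 11 only, with log2 fold changes of -0.67, -0.67, -0.73 and -0.75, close to that of all libraries. At an unadjusted p under 0.05, 6 of the 18 passed in edgeR, with adjusted p up to 0.189. The share of all tested genes under this threshold is not given here, so that count is not a result about the regulators. The count called was 3 with DESeq2, the likelihood ratio test, library totals alone and without DE replicate 1, with Pparg called higher under all 4 of these and Srebf1 under the first 3. Pparg was at 5.02 to 6.58 CPM in FA and 6.84 to 10.8 CPM in DE (log2 fold change 0.62, adjusted p = 0.0565), Srebf1 at 37.3 to 40.6 and 44.5 to 57.9 CPM (0.35, adjusted p = 0.0643) and Ppard at 13.3 to 19.4 and 18.1 to 24.0 CPM (0.32, adjusted p = 0.162, all from edgeR). Ppara, the receptor for which many genes of the previous list are named, was singled out after its values were seen, at 27.6 to 39.8 CPM in FA and 23.3 to 34.0 CPM in DE (log2 fold change -0.25, adjusted p = 0.309 in the same edgeR test).

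Of 8 related carriers, 1 was called lower and 0 higher, with a median of -0.07. With so few genes this count is not distinct from the 5.8% called of all tested genes. The called gene was Slc25a34, a carrier of the same family, which fell from 27.7 ± 2.40 to 2.74 ± 1.03 CPM (SD, n = 4 each; log2 fold change -3.32, standard error 0.22, adjusted p = 2.09e-05 from edgeR). The main ADP/ATP carriers Slc25a4 and Slc25a5, whose products also carry protons when fatty acids are present, were not called. Slc25a4 was at 2820 to 3730 CPM in FA and 2720 to 3340 CPM in DE (log2 fold change -0.10, standard error 0.12), and Slc25a5 at 550 to 722 and 542 to 637 CPM (-0.11, standard error 0.11). Slc25a10, the dicarboxylate carrier, was at 17.1 to 25.6 CPM in FA and 18 to 29 CPM in DE (log2 fold change 0.20, adjusted p = 0.499 in the edgeR test).

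Of 12 genes of mitochondrial antioxidant defence, 1 was called lower and 0 higher, with a median of 0.10, again near the 5.8% called of all tested genes. The called gene was Cat, the catalase found mainly in peroxisomes, which fell from 140.6 ± 8.92 to 78.2 ± 3.52 CPM (log2 fold change -0.85, standard error 0.09, adjusted p = 0.000594 from edgeR). The glutathione reductase gene Gsr was at 19.2 to 22.3 CPM in FA and 24.2 to 28.9 CPM in DE (0.33, adjusted p = 0.0752), the peroxidase gene Gpx4 at 133 to 201 and 173 to 221 CPM (0.26, adjusted p = 0.279), and Nnt, a transhydrogenase that supplies NADPH, at 347 to 375 and 302 to 339 CPM (-0.18, adjusted p = 0.212, all from edgeR). Of 16 ATP synthase genes 0 were called by edgeR, DESeq2 or limma-voom, with a median of 0.03. In edgeR 0 of these 16 had an unadjusted p under 0.05 (share over all tested genes not given here). Their log2 fold changes lay between -0.14, for Atp5a1 (3790 to 4400 CPM in FA, 3510 to 3900 CPM in DE), and 0.20, for the inhibitor Atpif1. Between them lay Atp5b at -0.12 and Atp5j2 at 0.16. Among libraries with prefix 11 only, the values of Slc25a10, Atpif1 and Atp5j2 were -0.09, -0.03 and -0.04.

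**Figure D4:**
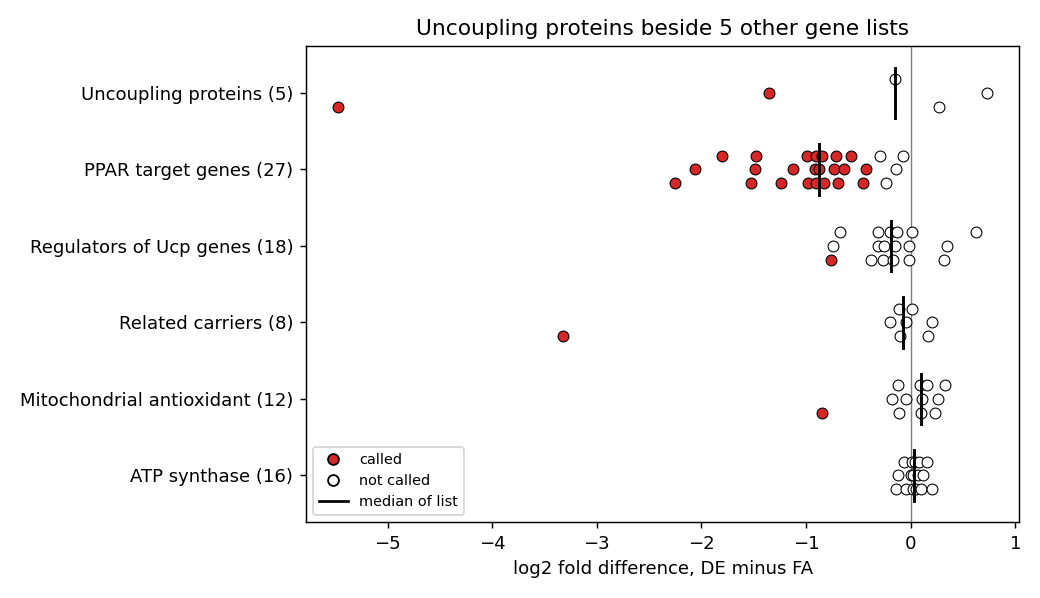
Log2 fold difference of DE over FA for each tested gene (filled red where called, open where not) in the uncoupling proteins and 5 lists, with the number of genes in brackets and a bar at the median of each list. The PPAR target genes lie to the left of 0, from -2.25 to -0.07, while Ucp3 (-5.47) and Slc25a34 (-3.32) stand apart from the rest of their rows.

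The genes with the nearest profiles were found by the root mean square difference of log2(CPM + 0.1) over the 8 libraries, each gene centred on its own mean, among genes averaging 1 CPM or more. This measure includes the difference between the groups, so it restates in part what is described above. For Ucp2 the 5 nearest were Plbd1, Plin5, Slc25a20, Mlycd and Car4, at differences of 0.212 to 0.242 log2 units. Plin5, which coats lipid droplets, went from 22.6 ± 3.24 to 7.74 ± 1.83 CPM, and Slc25a20, the carnitine and acylcarnitine carrier, from 138.4 ± 12.5 to 63.8 ± 4.12 CPM (SD, n = 4 each). Plbd1 went from 7.33 ± 1.503 to 2.79 ± 0.216 CPM and Car4, a carbonic anhydrase, from 11.9 ± 2.44 to 3.87 ± 0.864 CPM.
For Ucp3 no gene came as close. Slc25a34 was at a difference of 0.867 log2 units, Fbp2, the muscle fructose bisphosphatase, at 0.900, the desaturase gene Scd4 at 1.19 and Acot1 at 1.42. Fbp2 went from 3.11 ± 0.612 to 0.187 ± 0.147 CPM and Scd4 from 75.9 ± 2.79 to 12.0 ± 3.38 CPM, and the latter belongs to a family of similar genes whose reads may be shared.
For Ucp1 the nearest were Vwa1, Foxd2os, Klk8, Crabp2 and Gdf9, at 0.323 to 0.341 log2 units. For Slc25a14 they were Tmem222, Dffb, Pim3, Gins4 and Tsc22d3, at 0.0573 to 0.0868. For Slc25a27 they were Pcdhga4, Ctdsp2, Rxra, Esyt3 and Adcy6, at 0.0749 to 0.104.

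**Figure D5:**
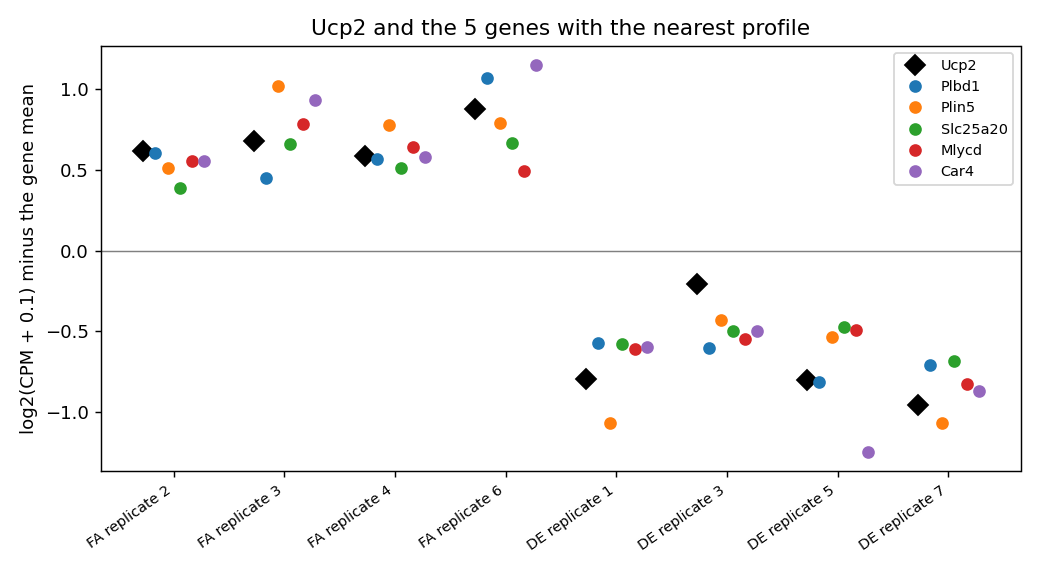
log2(CPM + 0.1) minus the gene's mean over 8 libraries (vertical axis) for Ucp2 (black diamonds) and the 5 genes with the nearest profile, in 4 FA and 4 DE libraries (horizontal axis). All 6 genes lie above 0 in the 4 FA libraries and below 0 in the 4 DE libraries.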

How the data were processed

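RNA-seq of 8 libraries of NCMs (4 FA, 4 DE) was used. Per the methods and the labels, the authors aligned reads to mm10 with TopHat, marked duplicates without removing them, and deposited raw counts of fragments per Entrez gene from featureCounts. The counting annotation, strand setting and handling of reads with several positions, which decide the counts of paralogs and overlapping genes, are not given in the sources used here, and duplicates left in make counting error look too small.

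Symbols were taken from a RefSeq table (GRCm38.p6, 25275 of 27179 genes matched) and transcript lengths from GENCODE M21. Genes were kept by filterByExpr with a minimum count of 10 and tested with edgeR 4.0.16 in R 4.3.3 (TMM factors, glmQLFit and glmQLFTest, exposure as the only term, Benjamini-Hochberg adjustment). The biological coefficient of variation was 15.95%. The closest pair of libraries in a group still gave a chi-square of 5.37 for each gene on average, and so none was counted as a copy. As alternatives, DESeq2 1.42.0, the likelihood ratio test of edgeR, limma-voom (limma 3.58.1), other scaling factors, other filters on low counts, prefix 11 alone, and leaving out each library were run. The tests were checked on simulated data.

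Members and lists were chosen with earlier results of these data known. In each list the 4 genes with the smallest adjusted p at a mean of 1 CPM or more were named, in each marker list up to 3 of the most abundant, and also all genes within 250 kb of the Ucp3 and Ucp2 pair, and the 5 nearest profiles of each member. Some genes were named outside this rule. Pln, a called gene, was named ahead of the more abundant Actc1 (log2 fold change -0.2, not called). The fat cell genes and Ppara were named after their values were seen. Of the nearest profiles of Ucp3, 1 gene is not reported here. Skeletal muscle, erythroid and endothelial markers summed to 7.22 to 11.2, 759 to 2020 and 1020 to 1580 CPM over the 8 libraries.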

Additional observations from a re-analysis of the deposited data

Results flagged for a closer look

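Of 112 groups of 4 libraries examined (56 genes in FA and in DE), 4 had 1 library whose gap to the nearest exceeded Dixon's 95% critical value for 4 values, where chance flags about 1 in 20. Ucp3 in FA replicate 2 was at 11.3 CPM with the nearest library at 9.32 CPM, and Ucp3 in DE replicate 1 was at 0.363 CPM with the nearest at 0.175 CPM, a value that rests on 12 fragments. Klk8 in FA replicate 6 was at 5.21 CPM with the nearest at 3.89 CPM, and Adcy6 in FA replicate 6 at 245 CPM with the nearest at 394 CPM.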

How the results depend on the processing

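No paired analysis was possible because FA and DE share only 1 replicate number in the labels. The calls of Ucp2 and Ucp3 and the count of 2 members called were the same under all 16 alternatives, as were the counts for related carriers (1) and ATP synthase (0), and 21 to 23 PPAR target genes were called. Of the regulators, 3 were called with DESeq2, with the likelihood ratio test, and with library totals alone, 0 with prefix 11 only, and 0 to 3 with single libraries left out (0 without FA replicate 2, FA replicate 4 or DE replicate 3, and 3 without DE replicate 1). Pparg and Srebf1 passed under the first 3 of these, and Pparg also without DE replicate 1. Of the antioxidant genes, 2 were called with DESeq2 and with library totals alone, Gsr being the added one. With prefix 11 only, the log2 fold change turned to -0.54 for Ucp1, -0.09 for Slc25a10, -0.03 for Atpif1 and -0.04 for Atp5j2, none of them called in any case. Between the DE prefixes, 0 members were called with library totals alone, and 0 to 1 with single libraries left out, where a lone library of a prefix was assumed to vary like the other groups. Over all genes this contrast called 309. Dropping 1 library gave from 0 (DE replicate 3 or 5) to 1031 (FA replicate 3), and the count was 1273 with the likelihood ratio test, 1119 with no filter on low counts and 26 with library totals alone. Over all genes, 536 were called higher and 332 lower. The total was 1633 with DESeq2, 1603 with the likelihood ratio test, 260 with prefix 11 only, and 237 to 1168 with single libraries left out. Depth limits Ucp3 in DE (3 to 12 fragments) and Ucp1 (7 to 69 fragments) most.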
